A study of Mus musculus with 6 samples.

Results

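Fatty acid oxidation genes encode the enzymes that shorten fatty acids in mitochondria and peroxisomes, together with the proteins that supply and control them. A list of 37 such genes was followed in iAT, the inguinal adipose tissue depot, of wild-type and Npffr1-KO mice. The members are matched by gene symbol to a list of the pathway's enzymes and regulators that was drawn up with earlier results of these data known, and all 37 were found among the 19831 genes of the deposited table. RNA sequencing of total RNA was done on 3 wild-type samples and 3 Npffr1-KO samples, each of inguinal adipose tissue taken at postnatal day 6 from mice kept under SPF conditions. Npffr1 encodes a receptor for neuropeptide FF, a peptide transmitter, and the Npffr1-KO samples carry an ablation of this gene. The labels give neither the strain nor the sex of the mice, nor whether a sample came from 1 animal or from several. No other allele, treatment or agent is named for either genotype.

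Fatty acids enter mitochondria as carnitine esters, for which the carnitine palmitoyltransferases are needed. Each round of beta-oxidation inside the mitochondrion then takes an acyl-CoA through dehydrogenation, hydration, a second dehydrogenation and thiolysis, and the electrons of the first step leave through the electron transfer flavoprotein. Very long and branched chains are shortened in peroxisomes. PPARα, encoded by Ppara, is a nuclear receptor that binds fatty acids and drives transcription of many of these genes. In adipose tissue the pathway is best known from brown and beige adipocytes, which burn fatty acids for heat, while white adipocytes mostly store them.

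The table holds 1 value per gene and genotype, in normalized counts, and no value per sample. The ratio of the 2 values is therefore reported without an error, and no test between genotypes was possible on it. A gene was counted as higher or lower when this ratio passed 1.5-fold, which is 0.58 on the log2 scale, and all 37 members passed the minimum mean of 10 normalized counts. Npffr1 itself was near the limit of detection in both genotypes, at 1.12 in wild-type and 0.855 in Npffr1-KO, so that it does not check the labels. In bulk tissue, more RNA of a gene per cell and more cells that hold it cannot be told apart. Over the 15309 genes past the minimum the median log2 ratio was 0.01. Ratios depended on gene length (Spearman's rho −0.38 over these genes, a description across genes), and for this reason each log2 ratio was also centred, by taking off the median of the genes nearest in length. For the 37 members that median ranged from −0.13 to 0.27. Libraries had like depth, with size factors from 0.916 to 1.04.

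Fatty acid oxidation genes were mostly higher in Npffr1-KO iAT. Of the 37 members, 32 had the higher value in Npffr1-KO, or 86.5%, against 51.2% of all genes past the minimum, and 5 had the lower value. At 1.5-fold, 9 members were higher, or 24.3%, against a background of 2.78%. Because the list was drawn up with earlier results known, these shares describe the members and are not independent evidence of a direction. Of 30 beta-oxidation genes left off the list, 0 were 1.5-fold higher. The 9 were Cpt1b, Ppara, Acaa2, Pdk4, Etfb, Acadvl, Hadhb, Eci1 and Acot13. None was 1.5-fold lower, where the background was 3.12%. At a looser ratio of 5 to 4, 22 members (59.5%) were higher, against 12% of all genes, and 1 was lower, against 11.6%. At 2-fold, 3 members were higher, against 0.483% of all genes. The median log2 ratio of the members was 0.38. Centred on genes of like length, the median was 0.35 and 7 members passed 1.5-fold, because Eci1 and Acot13, both short genes, came to 0.45 and 0.36. The summed value of the members was 95668 in wild-type and 129155 in Npffr1-KO, 0.413% and 0.546% of all normalized counts. For the 36 beta-oxidation genes of the table left off the list, with no minimum, the sum was 100846 in wild-type and 101108 in Npffr1-KO. A single gene held 44591 and 40699 of these sums.

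**Figure D1:**
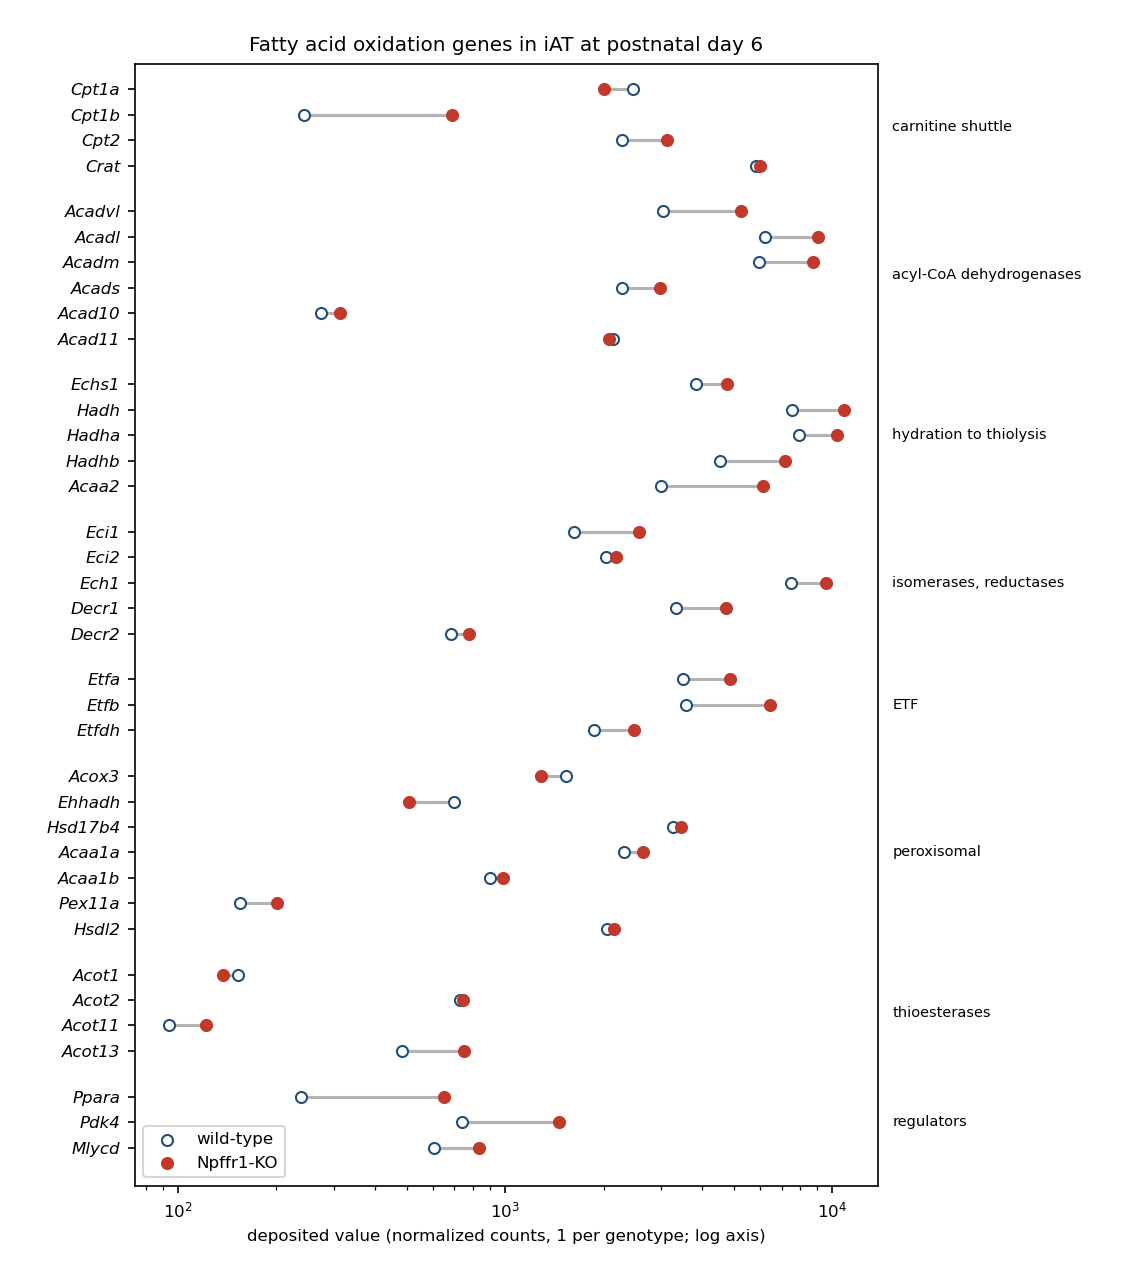
Deposited value of each of the 37 genes in wild-type (open circles) and Npffr1-KO (filled circles) iAT, in normalized counts on a log axis, grouped by role. There is 1 value per genotype and no error; the longest lines to the right belong to Cpt1b, Ppara and Acaa2, and Ehhadh has the longest line to the left.

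**Figure D2:**
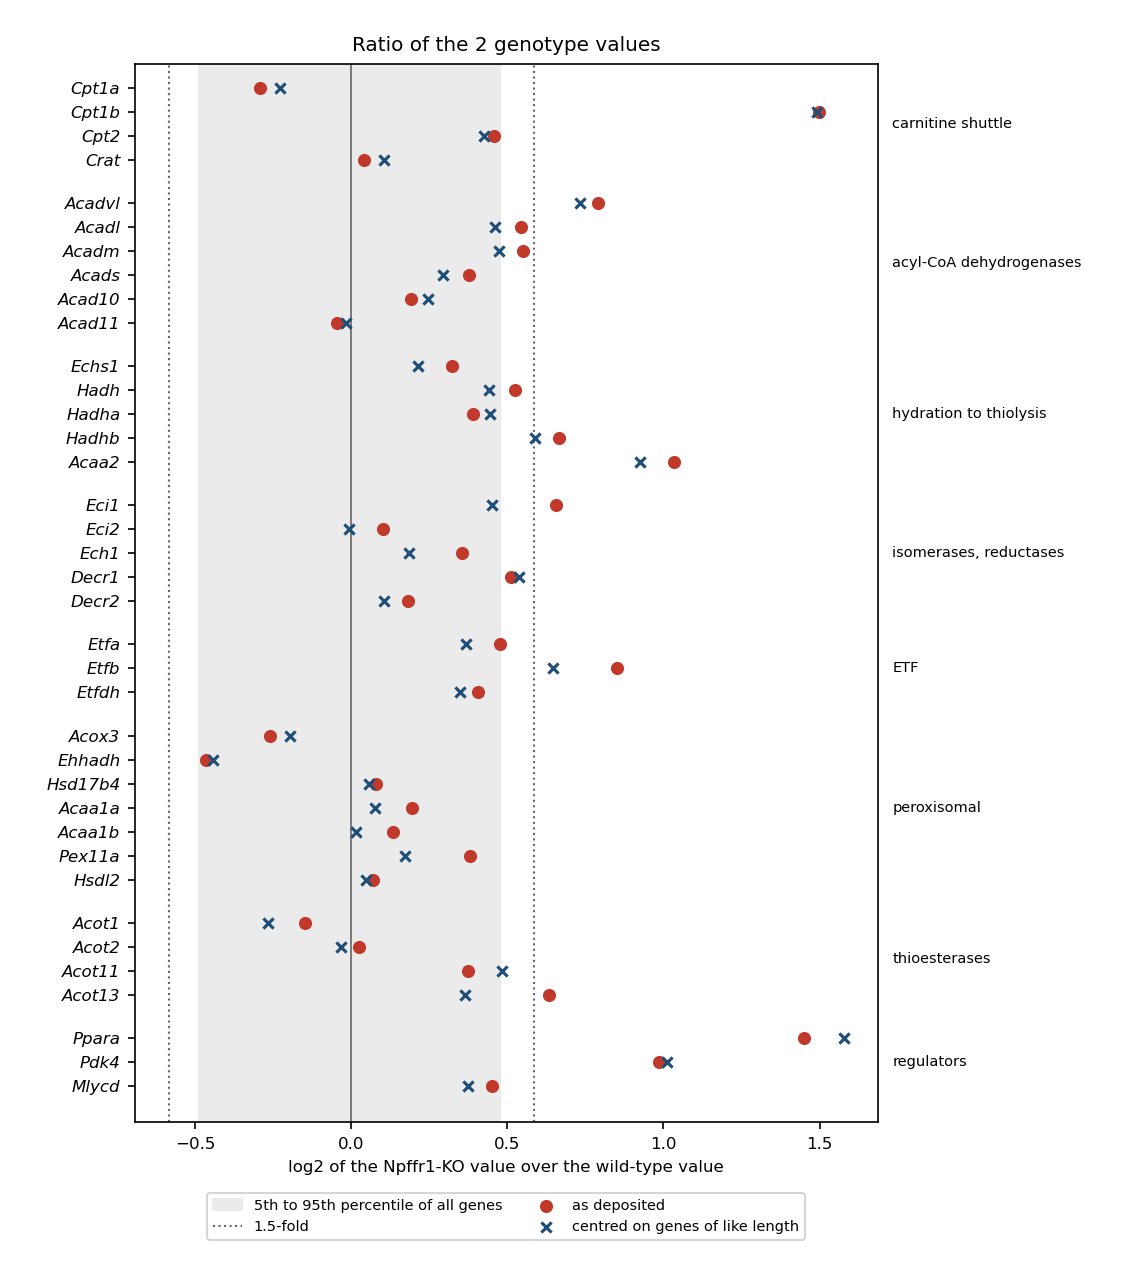
Log2 of the Npffr1-KO value over the wild-type value for each of the 37 genes (circles), and the same after centring on genes of like length (crosses). The grey band spans the 5th to the 95th percentile of the 15309 genes past the minimum, from −0.49 to 0.48, and the dotted lines mark 1.5-fold; Cpt1b and Ppara lie farthest to the right on both scales.

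The regulators held 2 of the 9 members past 1.5-fold. Ppara was at 237.9 in wild-type and 650.8 in Npffr1-KO, a log2 ratio of 1.45, and 1.58 after centring on length. Pdk4 encodes a kinase that switches off pyruvate dehydrogenase and so favours fatty acids over glucose as fuel. Its value was 736.3 in wild-type and 1458 in Npffr1-KO, a log2 ratio of 0.99. Mlycd, whose product breaks down malonyl-CoA, the inhibitor of fatty acid entry into mitochondria, went from 608.1 to 830.8, a log2 ratio of 0.45. All 3 regulators were thus on the higher side. Among the 12 companion genes of pyruvate dehydrogenase and malonyl-CoA metabolism none passed 1.5-fold in either direction as deposited, and 1 did after centring on length. This was Pdp2, named after its values were seen, which encodes a phosphatase that switches pyruvate dehydrogenase back on. Its log2 ratio was 0.58 as deposited and 0.61 centred. Its libraries held 92.3, 105.7 and 98.5 normalized reads in wild-type and 145.1, 133.2 and 175.4 in Npffr1-KO. They did not overlap, as in 7.83% of the genes with reads per library in this direction, which are described further on. In limma, fitted across those genes, the adjusted p was 0.18 (0.0099 before adjustment). The pair of them with the highest values, Fasn for fatty acid synthase and Pdha1 for a subunit of pyruvate dehydrogenase, had log2 ratios of 0.29 and 0.14.

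In the carnitine shuttle, the ratios of the 2 isoforms of the outer-membrane transferase lay on opposite sides of 1. Cpt1b, the isoform of muscle and brown fat, had the largest ratio of all 37 members, its value being 242.9 in wild-type and 686.0 in Npffr1-KO, 2.82 times as high. Cpt1a, the isoform of liver and most other tissues, was at 2455 in wild-type and 2006 in Npffr1-KO, a log2 ratio of −0.29. That ratio was within the 5th to 95th percentile of all genes past the minimum, from −0.49 to 0.48. Per kilobase of gene length, the level of Cpt1a was 6.75 times that of Cpt1b in wild-type and 1.95 times in Npffr1-KO. Cpt1b thus made up 12.9% of the pair per kilobase in wild-type and 33.9% in Npffr1-KO. Cpt2, the transferase of the inner membrane, had a log2 ratio of 0.46. Crat, which exchanges short acyl groups between carnitine and CoA, was at 5861 and 6022, a log2 ratio of 0.04. The companion gene Slc25a20, which encodes the carrier of acylcarnitines across the inner membrane and was picked after its value was seen, had a log2 ratio of 0.52. The value of Cpt1b is uncertain in 1 respect. In the GENCODE annotation of GRCm38 the gene (chr15:89416405-89425863, minus strand) overlaps Gm44502 on the same strand. Of its 31-base sequences 79.7% are also in that gene, so that reads could be split where both are annotated. The symbol Gm44502 is not in the deposited table, and whether the authors' annotation held it is unknown. Chkb, which lies next to Cpt1b, had a log2 ratio of −0.16.

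Mitochondrial acyl-CoA dehydrogenases catalyse the first step of each round and differ in the chain length they accept. The 4 classical enzymes were higher in Npffr1-KO, 1 of them past 1.5-fold. Acadvl, for very long chains, was at 3048 in wild-type and 5274 in Npffr1-KO, a log2 ratio of 0.79. Acadl and Acadm, for long and medium chains, had log2 ratios of 0.54 and 0.55, just under 1.5-fold. Acads, for short chains, had a log2 ratio of 0.38. Acad10 and Acad11, which belong to the same family and are less well characterised, had log2 ratios of 0.19 and −0.04. Of the 6 family members 5 were thus higher, and the median log2 ratio was 0.46.

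The genes of the later steps were all on the higher side. Hadha and Hadhb encode the alpha and beta subunits of the trifunctional protein, which carries out hydration, dehydrogenation and thiolysis of long chains. They lie head to head on chromosome 5, Hadha at chr5:30118304-30155162 on the minus strand and Hadhb at chr5:30155248-30184593 on the plus strand. The log2 ratio was 0.39 for Hadha and 0.66 for Hadhb, of whose 31-base sequences 23.3% are also in other annotated genes. Per kilobase, Hadhb was 1.07 times Hadha in wild-type and 1.3 times in Npffr1-KO. Acaa2, the thiolase of the mitochondrial matrix, went from 2996 to 6136, a log2 ratio of 1.03. Hadh, the dehydrogenase for medium and short hydroxyacyl chains, had the highest Npffr1-KO value of all members, 10849, against 7548 in wild-type, a log2 ratio of 0.52. Echs1, the short-chain hydratase, had a log2 ratio of 0.32. All 5 genes of this role were thus higher, 2 of them past 1.5-fold, and their median log2 ratio was 0.52.

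Isomerases and reductases prepare unsaturated chains for the cycle. Eci1, an enoyl-CoA isomerase of mitochondria, went from 1627 to 2565, a log2 ratio of 0.66. Decr1, the mitochondrial dienoyl-CoA reductase, had a log2 ratio of 0.51, and Decr2, its peroxisomal counterpart, had 0.18. Eci2 was at 0.10, and turned to −0.01 after centring on length. Ech1, a dienoyl-CoA isomerase, had the highest level per kilobase of all 37 members in both genotypes, 6583 and 8422 normalized counts per kilobase, and a log2 ratio of 0.36. All 5 were thus higher before centring and 4 of 5 after it.

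The electron transfer flavoprotein takes up electrons from the acyl-CoA dehydrogenases. Etfb, its beta subunit, was at 3585 in wild-type and 6470 in Npffr1-KO, a log2 ratio of 0.85. Etfa, the alpha subunit, had a log2 ratio of 0.48, and Etfdh, the oxidoreductase that passes the electrons to ubiquinone, had 0.41. Etfb is 920 bases long and came to 0.65 after centring on length. Of its 31-base sequences 49.9% are also in other annotated genes, most of them in the overlapping Gm45233, a symbol that is not in the deposited table. Taking the carnitine shuttle, the dehydrogenases, the later steps and the flavoprotein as 1 set of 18 mitochondrial genes, 16 were higher, 5 past 1.5-fold, and the median log2 ratio was 0.47.

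Peroxisomal members had a lower median ratio. None of the 7 passed 1.5-fold, which says little for 7 genes beside 2.78% of all genes higher and 3.12% lower. By any amount 5 were on the higher and 2 on the lower side, where 51.2% of all genes were higher. Their median log2 ratio was 0.08. Decr2, the peroxisomal reductase named above, was counted with the isomerases and reductases. Ehhadh, the bifunctional enzyme that hydrates and dehydrogenates peroxisomal intermediates, had the lowest ratio of all 37 members, with 699.9 in wild-type and 506.6 in Npffr1-KO, a log2 ratio of −0.47. Acox3, an oxidase of branched chains, had a log2 ratio of −0.26. Hsd17b4, the other bifunctional enzyme, was at 0.08, and Hsdl2, a dehydrogenase-like protein, at 0.07. The thiolases Acaa1a and Acaa1b had log2 ratios of 0.20 and 0.13, but share sequence with each other, 40.01% of the 31-base sequences of Acaa1b being found in Acaa1a. The summed value of these genes was 10908 in wild-type and 11215 in Npffr1-KO, 1.03 times as high. Of the 16 companion genes for peroxisome biogenesis and catalase, none passed 1.5-fold, 9 were higher and 7 lower, and the median log2 ratio was 0.04. Cat, for catalase, and Pex19, a chaperone of peroxisomal membrane proteins, the 2 of them with the highest values, had log2 ratios of −0.05 and 0.06. The difference between mitochondrial and peroxisomal members was not tested.

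Acyl-CoA thioesterases free fatty acids from CoA. Acot13, a thioesterase associated with mitochondria, went from 483.5 to 749.7, a log2 ratio of 0.63. Acot2, the mitochondrial enzyme, had a log2 ratio of 0.02, and Acot1, its cytosolic neighbour, had −0.15. Acot11, first described as a thioesterase inducible in brown fat, had a log2 ratio of 0.37 at the lowest level per kilobase of all members in both genotypes. Acot1 and Acot2 share sequence, 29.9% of the 31-base sequences of Acot2 being found in Acot1, so that reads could be split between them.

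For genes with few reads the values of single libraries could be worked out. Genes to which just 1 read of the series was assigned fell on 6 values, 1 per library, and from these the whole reads of each library that give the deposited mean were searched. Exactly 1 combination was found for 4268 of the 4428 genes with a mean between 10 and 200, or 96.4%. The libraries could be assigned to a genotype but not to a replicate number. Acot1, Acot11 and Pex11a were the 3 members with reads of this kind, while 3 combinations remained for Acad10 and the other 33 members have too many reads for the search. The 3 are therefore the members with a replicate error.

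Pex11a, whose product takes part in the division of peroxisomes, had normalized reads of 148.9, 147.8 and 163.2 in wild-type, while Npffr1-KO held 229.1, 198.8 and 177.3. The mean was 153.3 ± 8.60 in wild-type and 201.8 ± 26.0 in Npffr1-KO (SD, n = 3 each). Every Npffr1-KO library was thus above every wild-type library, as in 7.83% of the 4268 genes with reads. Pex11a is 879 bases long, and its deposited log2 ratio of 0.38 came to 0.17 after centring on length. The reads per library and the tests on them were not centred. The exact two-sided permutation test gave p = 0.1, which is the smallest that 3 against 3 allows. In limma, fitted across the genes with reads on log2 of the normalized reads plus 1, the difference was 0.39 on the log2 scale (SE 0.18), with an adjusted p of 0.32 and, before adjustment, 0.046. With each library left out in turn, the difference ranged from 0.29 to 0.48 and the unadjusted p of limma from 0.033 to 0.14, over 0.05 in 5 of 6 fits. The unadjusted p of limma was 0.046 with a pseudocount of 0.5 and 0.036 after rescaling to the sum of the recovered reads. It was 0.055 with a minimum mean of 1 and 0.107 without a trend in the prior variance.

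Acot11 had normalized reads of 90.3, 102.8 and 85.0 in wild-type, while Npffr1-KO held 99.3, 108.0 and 160.0. The higher Npffr1-KO mean, 122.4 ± 32.8 against 92.7 ± 9.14 (SD, n = 3 each), thus came largely from 1 library, and the groups overlapped. The difference was 0.37 on the log2 scale (SE 0.24), with an adjusted p of 0.50 in limma and p = 0.2 in the exact permutation test, and it fell to 0.16 in limma without that library.

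Acot1 had normalized reads of 158.8, 199.7 and 101.4 in wild-type, while Npffr1-KO held 157.1, 119.1 and 134.9. The groups overlapped, and the wild-type libraries alone spanned the whole Npffr1-KO range. The difference was −0.12 on the log2 scale (SE 0.24), with an adjusted p of 0.87 in limma and p = 0.7 in the exact permutation test. It ranged from −0.38 to 0.10 when each library was left out in turn, and turned to the higher side without the wild-type library of 199.7.

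None of the 3 members thus passed the adjusted threshold of 0.05, and 1 of them, Pex11a, had an unadjusted p under 0.05, which did not hold under most of these alternatives. Over the 4268 genes, 23 passed the adjusted threshold, or 0.539%, and 630 had an unadjusted p under 0.05, or 14.8%. The count of 23 became 1 without a trend in the prior variance, and lay between 2 and 54 when each library was left out in turn. The median SD of log2 values within a genotype was 0.26 for genes with a mean of 60 to 200, which for 3 against 3 gives a standard error of 0.22 for a difference. The spread of members with more reads was not measured. In the 3 members, the ratio of the library means was 1.316 for Pex11a, 1.321 for Acot11 and 0.894 for Acot1, against 1.3, 1.296 and 0.901 for the deposited values, each of which lay nearer to 1. For these members the search accepted only reads that gave the deposited ratio by a fitted formula. Neither the closeness nor the side of the gap is therefore a separate check.

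**Figure D3:**
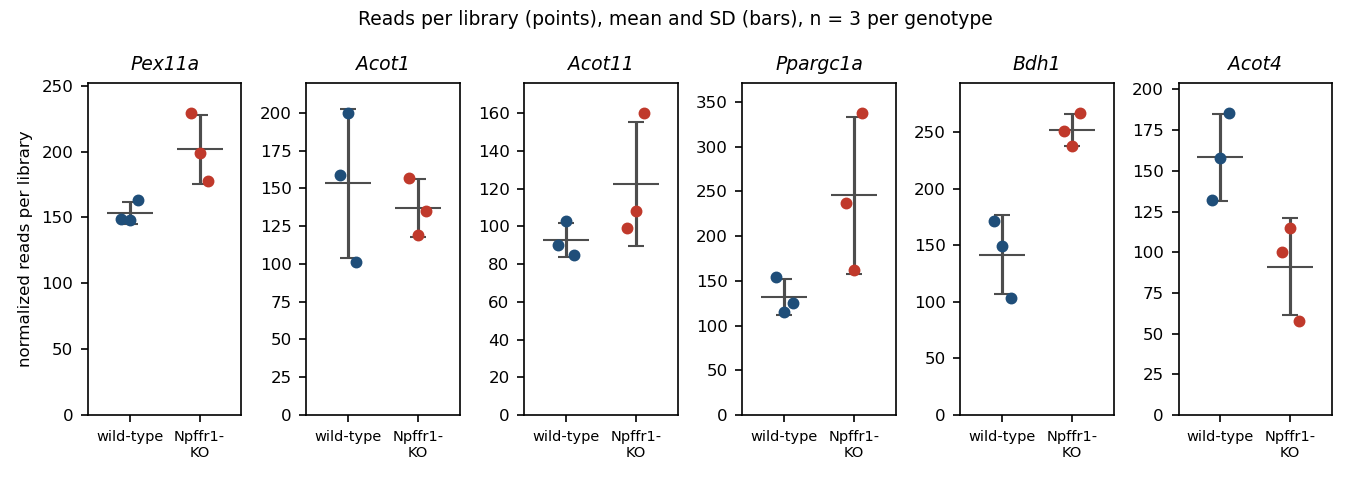
Normalized reads in each library (points) with the mean and SD (bars, n = 3 per genotype) for the members Pex11a, Acot1 and Acot11 and the companion genes Ppargc1a, Bdh1 and Acot4; each panel has its own vertical axis from 0. Wild-type and Npffr1-KO libraries do not overlap in Pex11a, Ppargc1a, Bdh1 and Acot4, and overlap in Acot1 and Acot11. Of all 4268 genes with reads, 7.83% do not overlap with Npffr1-KO higher and 11.4% with Npffr1-KO lower. The companion genes shown were named because they passed 1.5-fold in these same data, so their lack of overlap is not independent of that choice.

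Genes that work with PPARα went in several directions. Of 15 receptors, partners and coactivators, 2 were 1.5-fold higher and 1 was 1.5-fold lower, with a median log2 ratio of 0.04. The coactivators Ppargc1b and Ppargc1a, which raise mitochondrial gene expression, had log2 ratios of 0.90 and 0.83, and Nrip1, a corepressor of oxidative genes, had −0.68. Reads per library were found for Ppargc1a, with 153.8, 115.5 and 125.5 normalized reads in wild-type and 236.8, 162.5 and 337.3 in Npffr1-KO. Every Npffr1-KO library was above every wild-type library, as in 7.83% of the genes with reads, and the adjusted p in limma was 0.094. Of 14 other PPAR target genes past the minimum, 3 were 1.5-fold higher, none was 1.5-fold lower, and 8 were higher and 6 lower by any amount. The 3 were Fabp3, a fatty acid binding protein, with a log2 ratio of 2.51, Cidea, a lipid droplet protein of brown fat, with 2.23, and Plin5, a lipid droplet coat protein of oxidative tissue, with 1.97. The median log2 ratio of this list was 0.13.

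Beta-oxidation genes outside the 37 had a median log2 ratio of 0.12. Of 30 such genes past the minimum, 21 were higher and 9 lower. Acot4, a thioesterase of peroxisomes, was the 1 gene past 1.5-fold, on the lower side, with a log2 ratio of −0.73. Its libraries held 132.0, 157.6 and 185.4 normalized reads in wild-type and 100.4, 115.0 and 57.8 in Npffr1-KO. They did not overlap, as in 11.4% of the genes with reads in this direction, and the adjusted p in limma was 0.13. Among 5 ketone body genes, Bdh1, which interconverts the 2 main ketone bodies, was 1.5-fold higher, with 171.7, 149.8 and 103.3 normalized reads in wild-type, 251.0, 238.2 and 266.9 in Npffr1-KO and an adjusted p of 0.065 in limma.

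**Figure D4:**
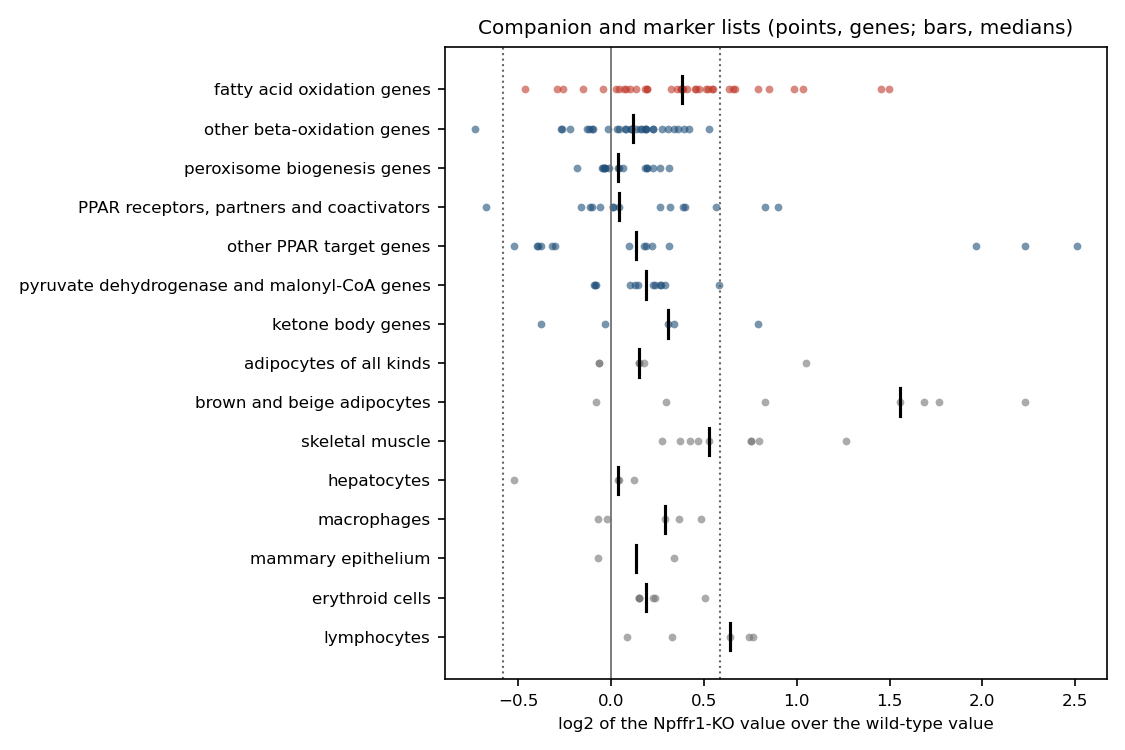
Log2 of the Npffr1-KO value over the wild-type value for the 37 fatty acid oxidation genes (red), the companion lists (blue) and the cell type markers (grey); points are genes with a mean of at least 10, black bars are medians and dotted lines mark 1.5-fold. The median is 0.38 for the fatty acid oxidation genes, 0.12 for the other beta-oxidation genes and 1.55 for the markers of brown and beige adipocytes.

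Markers of cell types were compared as well, and their ratios differed between the lists. Of 7 brown and beige adipocyte markers past the minimum, 6 were higher, 5 of them past 1.5-fold, Cidea and Ppargc1a of the lists above included. Their summed value was 2009 in wild-type and 5628 in Npffr1-KO. Ucp1, the uncoupling protein of thermogenic fat, was at 438.4 and 1287, while Elovl3 was near 0 in both, at 0.452 and 0.511. All 9 skeletal muscle markers past the minimum were higher, 4 of them past 1.5-fold as deposited and 2 after centring on length. The summed value of the muscle markers went from 749.8 to 1249. Acta1, skeletal muscle actin, was at 170.6 and 409.9, and Myh4, a fast myosin, was near 0, at 0.157 and 0.164. Cpt1b and Pdk4 are known to be high in muscle and in brown fat. Markers of hepatocytes, cells rich in Cpt1a and Ehhadh, had summed values of 481.4 and 491.1, with Ttr and Cps1 near 0. Markers of adipocytes of all kinds were at 240120 and 262482, which is 1.09 times as high, a sum made up mostly of Fabp4. Their median log2 ratio was 0.15 as deposited and −0.03 after centring on length. As deposited, 4 of these 6 markers were higher and 2 lower, and 1 passed 1.5-fold, Lep for leptin with a log2 ratio of 1.05. Adipoq for adiponectin had −0.07. All 5 lymphocyte markers were higher, with a median log2 ratio of 0.64 and a sum 1.37 times as high. The T cell genes Cd3e, Cd3g and Lck passed 1.5-fold, with log2 ratios of 0.64, 0.77 and 0.74, of which 1 passed after centring on length. All 6 erythroid markers were higher, none past 1.5-fold, and their sum was 1.13 times as high. Of 5 macrophage markers 3 were higher, none past 1.5-fold, and the sum was 1.17 times as high. Markers of mammary epithelium had a sum of 56.5 in wild-type, 1.09 times as high in Npffr1-KO. The part of any of these cell types in the higher values of the members was not tested.

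Promoters were searched for motifs that bear on PPARα and on mitochondrial genes. RefSeq promoters of GRCm38.p6 were at hand for 31 members, with 32 start sites, and the 250 bases before each start were read on both strands. None was at hand for Cpt1b, Acaa2 and Acot13, which were past 1.5-fold, or for Decr1, Crat and Hsd17b4. The direct repeat AGGTCANAGGTCA, the textbook form of the PPAR response element, was found in none of the 32 member promoters and in 0.0335% of 32851 promoters. At so low a share, its absence from 32 promoters says little. The hexamer AGGTCA, to which nuclear receptors bind, was found in 12.5% of the member promoters, those of Acadm, Acadvl, Cpt1a and Echs1, and in 14.02% of all. The NRF1 palindrome GCGCATGCGC, to which a factor of mitochondrial gene expression binds, was found in 6.25% of the member promoters, those of Ppara and Etfdh, and in 0.782% of all. The GC box GGGCGG was in 62.5% of member promoters and 32.7% of all, the CCAAT box CCAAT in 46.9% and 33.8%, and the TATA box TATAAA in none and in 12.4%. The median GC content was 59.6% in the member promoters and 52.4% in all. These matches describe the letters of the windows only.

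The promoters below are shown for Ppara, which holds the palindrome, for Pdk4, the second regulator past 1.5-fold, which holds neither motif, and for Cpt1a, Acadvl and Acadm, which hold the hexamer and had log2 ratios of −0.29, 0.79 and 0.55. Each runs 5′ to 3′ towards the start, and capitals mark the palindrome or the hexamer, the latter as TGACCT where it lies on the other strand.
Ppara, chr15:85735526-85735775, plus strand: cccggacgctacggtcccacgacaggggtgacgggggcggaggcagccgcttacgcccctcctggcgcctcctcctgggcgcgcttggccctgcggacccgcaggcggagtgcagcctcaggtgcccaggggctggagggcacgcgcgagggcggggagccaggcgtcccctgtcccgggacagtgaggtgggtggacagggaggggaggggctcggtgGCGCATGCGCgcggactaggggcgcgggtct
Pdk4, chr6:5496279-5496528, minus strand: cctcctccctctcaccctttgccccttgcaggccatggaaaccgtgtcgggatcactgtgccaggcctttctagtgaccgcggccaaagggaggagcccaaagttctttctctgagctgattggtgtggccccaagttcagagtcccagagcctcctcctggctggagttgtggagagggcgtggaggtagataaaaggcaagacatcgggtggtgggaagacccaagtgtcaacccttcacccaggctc
Cpt1a, chr19:3323051-3323300, plus strand: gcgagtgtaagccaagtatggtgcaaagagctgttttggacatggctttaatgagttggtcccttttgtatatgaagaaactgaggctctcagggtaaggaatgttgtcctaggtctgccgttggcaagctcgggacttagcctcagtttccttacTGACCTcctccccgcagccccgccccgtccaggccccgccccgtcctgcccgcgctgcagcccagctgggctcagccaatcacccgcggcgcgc
Acadvl, chr11:70015429-70015678, minus strand: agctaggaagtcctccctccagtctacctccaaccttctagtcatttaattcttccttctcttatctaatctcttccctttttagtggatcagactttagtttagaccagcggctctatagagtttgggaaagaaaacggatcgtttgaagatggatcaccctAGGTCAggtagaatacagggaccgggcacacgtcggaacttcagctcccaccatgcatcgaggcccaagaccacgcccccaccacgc
Acadm, chr3:153944644-153944893, minus strand: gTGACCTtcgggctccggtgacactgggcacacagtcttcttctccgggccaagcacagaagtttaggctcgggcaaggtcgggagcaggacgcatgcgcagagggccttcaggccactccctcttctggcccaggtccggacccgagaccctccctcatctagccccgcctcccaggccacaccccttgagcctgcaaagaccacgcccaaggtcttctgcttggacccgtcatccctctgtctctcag
The hexamer lay at positions −94 to −89 from the start in Cpt1a, −87 to −82 in Acadvl and −249 to −244 in Acadm. Whether it goes with the ratio of a gene was not tested.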

How the data were processed

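RNA was extracted with TRIzol from iAT of 3 wild-type and 3 Npffr1-KO samples. Per the labels, Bowtie2, RSEM and DESeq2 were used, while genome build and annotation were not given in the sources used here. The authors deposited 1 table with a signal per gene and genotype, in normalized counts, and the gene length. Columns with the authors' own fold changes, p-values and direction calls were not used. The 2 values are not means of libraries. Averaged, they give the mean normalized count of all 6 libraries, and their ratio is drawn towards 1 for genes with few reads. The table gives no value per sample.

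Log2 ratios were taken without a pseudocount. Whole reads per library were searched for genes with a mean of up to 200 (members up to 300), with 585 single-read genes giving the size factors. A combination had to give the deposited mean to its last digits. For genes with a mean above 25 it also had to give the deposited ratio, by a formula fitted on 468 genes. Each library of these larger genes was kept within a range around its genotype's value. The search and limma (version 3.58.1, R 4.3.3) were tested on simulated data. limma was fitted with a trend on log2(normalized reads + 1), with Benjamini-Hochberg adjustment, and exact two-sided permutation tests were run beside it. Nothing says whether the samples came from separate animals, so that p-values measure the spread between samples, which may be technical. Genes were centred on the median of 20 length classes. Gene places and shared sequences came from GENCODE M21. The members and lists were chosen with earlier results of these data known. All members could be named, as well as companions past 1.5-fold with a mean of at least 10, up to 5 per list, or else the 2 with the highest mean, and at most 3 further genes. Alternatives were other folds, minimums, pseudocounts, centrings, sets of members and, for limma, single libraries left out.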

Additional observations from a re-analysis of the deposited data

How the results depend on the processing

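The count of members at least 1.5-fold higher, 9, became 22 at a ratio of 5 to 4 and 3 at 2-fold. The count of members at least 1.5-fold lower, 0, became 1 at a ratio of 5 to 4, namely Ehhadh. Under the other minimums, pseudocounts, centrings and sets of members the higher count lay between 6 and 9, and the lower count was 0. The value of 6 leaves out 7 members that share over 20% of their sequence with other genes, Cpt1b, Etfb and Hadhb among them, an alternative chosen after seeing the data. The median log2 ratio lay between 0.35 and 0.41. Centring on genes of like length turned the sign of 2 members, Eci2 and Acot2. Only 3 members, Pex11a, Acot1 and Acot11, could enter limma, and none of the 9 past 1.5-fold was among them. The count of these 3 that differed in limma was 0 under every alternative, leaving out each library included (range 0 to 0). Over all genes with reads, the 23 calls became 1 without the trend, 36 with a minimum mean of 1, and between 2 and 54 when each library was left out. The lowest counts, 3, 2 and 2, came without 1 of 2 wild-type libraries or 1 Npffr1-KO library, and the highest without another Npffr1-KO library. The cause was not tested. Of the 10 members highest per length in wild-type, 10 were so in Npffr1-KO and 9 without division by length. No paired analysis was possible because the libraries could not be tied to replicate numbers. Depth per sample is unknown beyond the size factors, and 34 members have no replicate error.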
